A study of Mus musculus with 6 samples.

Results

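The genes of apoptosis and DNA fragmentation were followed in RNA from the SN, the midbrain region that loses its DAergic neurons in Parkinson's disease. The set held 35 genes of the 24054 in the count table, chosen by gene symbol for their known roles. Earlier results of these data were known when they were chosen. All 35 were found, and 33 of them passed the filter on low counts that 14568 genes passed in all. The 3 MitoParks carried Cre in place of 1 copy of Dat, the dopamine transporter gene, and loxP-flanked copies of Tfam on both chromosomes. Cre in this line is made where Dat is active, so that the mitochondrial transcription factor Tfam is lost from DAergic neurons and from no other cell type by design. The 3 littermate controls had 1 loxP-flanked Tfam copy and no Cre. All 6 mice were 16 to 17 weeks of age by the sample labels, and no drug or toxicant was given. The study's methods name C57BL/6 for its control mice, which could come from MitoPark or parental strain litters. Both sexes were used in the study, and those methods do not give the sex of each of these mice. Nothing in the labels ties a replicate number to a litter, and whether a sample is more than 1 animal's tissue is not stated there, so p-values measure only the spread between these samples.

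Apoptosis runs along connected routes. In the mitochondrial route, BH3-only proteins switch on Bax and Bak1, which open the outer mitochondrial membrane unless Bcl2 and its pro-survival relatives hold them back. Cytochrome c then escapes and builds the apoptosome with Apaf1 and caspase-9. In the death receptor route, Fas or the tumor necrosis factor receptor recruits Fadd and caspase-8, and Cflar, also called c-FLIP, holds caspase-8 in check. Both routes end in cleavage of Dffa, the inhibitor and chaperone of the nuclease Dffb. Freed Dffb, also called CAD, cuts chromatin between nucleosomes into the DNA ladder that is a textbook sign of apoptosis. Most of this control acts on proteins by cleavage, release and binding, none of which a count of mRNA measures.

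Total expected counts ran from 8140777 to 10528602 per mouse. At these totals 3 counts, the level taken as the floor, were worth 0.285 to 0.369 CPM (counts scaled to the same library total). That range was taken before TMM normalization, and the levels per mouse and their means below are CPM after it. Tfam, the targeted gene, ran from 40.3 to 45.4 CPM in littermate controls and from 32.6 to 33.2 CPM in MitoParks, with a log2 fold change of -0.40 and a 95% interval from -0.64 to -0.15 in the edgeR quasi-likelihood fit. Those groups did not overlap, as was so in this direction for 2.28% of all tested genes, and the labels matched the direction of the deletion. The change was less than the 1.5-fold cutoff used below, with an edgeR p of 0.0056 before adjustment and 0.9993 after. Littermate control 3 stood apart for DAergic neuron genes. Its summed CPM over 10 such markers was 1435, against 443.6 and 535.3 in the other littermate controls and 299 to 543 in the MitoParks. It was also the highest mouse for summed oligodendrocyte markers, at 18000 CPM against 6854 to 15320 in the others. The same held for endothelium and pericyte markers, at 327.8 CPM against 201.2 to 274.3. In bulk RNA of this kind, fewer cells of a type and less RNA per cell cannot be told apart.

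Of the 33 tested genes, 2 rose in MitoParks, Dffb, the apoptotic nuclease, and Casp8, the initiator caspase of the death receptor route. Dffb was 1.68-fold and Casp8 1.65-fold higher, and none of the other 31 passed the cutoffs used here, a p below 0.05 without adjustment and more than a 1.5-fold change. No gene of the set fell, and 0 had a lower level with an unadjusted p below 0.05 in edgeR, DESeq2 or limma. Among those 31 the lowest p was 0.253, the log2 fold changes ran from -0.37 to 0.49, and 29 lay within 0.25 of zero. The 2 that rose were 6.06% of the tested members, beside 0.378% of all tested genes that passed the same cutoffs upward and 0.199% that passed downward. Dffb had already been singled out by the study in these same mice, and the set was chosen with earlier results known. Its place in the 6.06% is therefore no support for a rise of the set. A p below 0.05 alone was reached by 1.11% of all genes and by the same 2 members. Adjusted over all 14568 genes by the Benjamini-Hochberg method, no p in the edgeR test fell below 0.9993, so neither gene passed with adjustment.

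Expression of Dffb was 3.89, 5.50 and 3.81 CPM in littermate controls 1 to 3, from 35, 58 and 39 counts, and 7.92, 5.96 and 8.38 CPM in MitoParks 1 to 3, from 65, 59 and 74 counts. Every MitoPark lay above every littermate control, though MitoPark 2 and littermate control 2 were close to each other. The means were 4.40 ± 0.955 and 7.42 ± 1.29 CPM (SD, n = 3 each), a log2 fold change of 0.75 with an SE of 0.24 and a 95% interval from 0.20 to 1.29. The edgeR p was 0.0124 before adjustment. A two-sided exact permutation test of the 2 groups gave p = 0.1, which is the smallest that 3 mice against 3 allow. Dffb stayed past both cutoffs with any 1 mouse left out, with log2 fold changes from 0.65 to 0.94. The study had already singled out Dffb from these same mice, so its rise here is not independent evidence.

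For Casp8, the level was 2.11, 2.28 and 1.66 CPM in littermate controls 1 to 3, from 19, 24 and 17 counts, and 2.92, 3.33 and 3.74 CPM in MitoParks 1 to 3, from 24, 33 and 33 counts. Here too the groups did not overlap, and the values lay within a narrow range on either side. Means of 2.02 ± 0.320 and 3.33 ± 0.408 CPM (SD, n = 3 each) gave a log2 fold change of 0.72 with an SE of 0.28 and a 95% interval from 0.10 to 1.35. The edgeR p was 0.0277 before adjustment, and the exact permutation p was again 0.1. This call rested on few counts. It was lost from the edgeR test when littermate control 1, littermate control 3, MitoPark 2 or MitoPark 3 was left out, with unadjusted p-values of 0.053, 0.099, 0.057 and 0.077 in that order. With all 6 mice, the unadjusted p was 0.082 in DESeq2. The log2 fold change itself stayed between 0.60 and 0.82 without any 1 mouse.

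**Figure D1:**
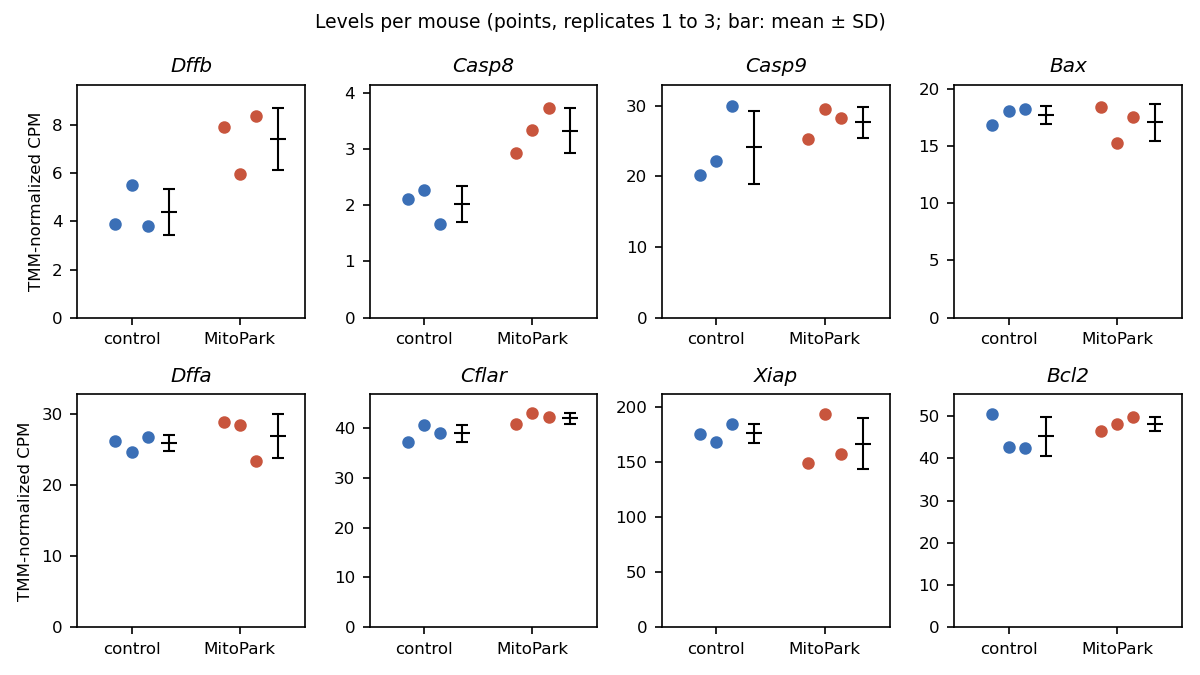
TMM-normalized CPM (linear axis from 0) of 8 genes, each a regulator or effector above or beside its partner, with 1 point per mouse for littermate controls (blue) and MitoParks (red) and the mean ± SD (n = 3) at the right of each group. The MitoPark points lie above every littermate control point for Dffb, Casp8 and, by a small margin, Cflar, and the groups overlap for the other 5 genes.

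Across all tested genes, 2.43% had MitoPark values wholly above the littermate controls and 2.28% wholly below. Of the 33 members, Dffb and Casp8 were the 2 in the first class and 0 were in the second. With 1 mouse left out, separation is easier to reach, and 2 to 5 members were wholly above while the share of all genes wholly above ran from 4.34% to 10.9%.

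The promoters of Dffb and Casp8 are shown because these were the 2 members past the cutoffs. Both come from the RefSeq promoter table for GRCm38.p6 and hold 250 bases before and 50 bases after the start, read along the gene. The Dffb window is chr4:153975032-153975331 on the minus strand, and the Casp8 window is chr1:58802252-58802551 on the plus strand. Capitals mark matches, on either strand, to GGGCGG (the GC box), TTCCGG (a core bound by ETS factors), CCAAT, or GAAANGAAA (a repeat of the kind bound by interferon regulatory factors).
Dffb: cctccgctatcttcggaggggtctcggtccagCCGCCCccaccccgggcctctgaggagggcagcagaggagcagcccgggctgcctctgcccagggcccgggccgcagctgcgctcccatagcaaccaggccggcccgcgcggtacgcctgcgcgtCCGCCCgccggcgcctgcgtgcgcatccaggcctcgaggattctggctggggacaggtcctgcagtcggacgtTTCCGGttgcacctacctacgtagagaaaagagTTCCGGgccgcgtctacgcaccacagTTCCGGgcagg
Casp8: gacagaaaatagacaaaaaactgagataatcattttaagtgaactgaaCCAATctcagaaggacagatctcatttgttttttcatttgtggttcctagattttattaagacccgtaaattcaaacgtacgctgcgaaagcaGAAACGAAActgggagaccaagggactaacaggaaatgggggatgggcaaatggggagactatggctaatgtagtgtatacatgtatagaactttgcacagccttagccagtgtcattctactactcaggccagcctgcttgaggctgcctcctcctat

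These windows had little in common. The Dffb window held 32 CpG dinucleotides, more than 90.5% of the 32851 promoters in the table, and was 71.3% G and C. The Casp8 window held 5, where the median promoter held 7, and was 42.0% G and C. In Dffb the GC box began at positions -218 and -93 and the ETS core at -20, 14 and 40, counted from 1 at the first base of the transcript. In Casp8 the CCAAT box began at -202 and the GAAANGAAA repeat at -109. Of all promoters in the table, 35.7% held GGGCGG, 14.9% TTCCGG, 37.4% CCAAT and 3.17% GAAANGAAA. TATAAA, the same repeat with a spacer 1 base longer and the p53 half-site, which were in 13.6%, 3.44% and 8.36% of promoters, had no match in either window. A match is a stretch of letters and not a measured binding site, and Casp8 has other annotated starts.

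No exon of Dffb or Casp8 overlapped an exon of another gene in the GENCODE M21 annotation.

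Among the other DNA fragmentation genes, no change passed the cutoffs. Dffa, the inhibitor and folding partner of Dffb, ran at 26.2, 24.6 and 26.8 CPM in littermate controls 1 to 3 and 28.9, 28.5 and 23.3 CPM in MitoParks 1 to 3. MitoPark 3 was below every littermate control while the other two were above, and the log2 fold change was 0.06 (95% interval -0.23 to 0.34, exact permutation p = 0.6). Endog, a mitochondrial nuclease, had a log2 fold change of -0.16 (95% interval -0.62 to 0.29), and Aifm1, the mitochondrial flavoprotein that moves to the nucleus in caspase-independent death, -0.07 (95% interval -0.39 to 0.24). Scaled to the longest annotated transcript, Dffa was at 10.5 CPM per kilobase in littermate controls and Dffb at 2.1, which became 10.9 and 3.55 in MitoParks.

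Within each mouse, Dffb had 15.1, 22.5 and 14.4 counts per 100 counts of Dffa in littermate controls 1 to 3 and 27.6, 21.1 and 36.1 in MitoParks 1 to 3. MitoPark 2 fell below littermate control 2, so the groups overlapped. The log2 ratio differed by 0.70 (MitoPark minus littermate control), with an exact permutation p of 0.2 and 0.267 after Benjamini-Hochberg adjustment over the 4 ratios tested. It remained above 0.50 with any 1 mouse left out.

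The caspases, the proteases of the pathway, had 6 of 7 genes tested, and 5 of these had log2 fold changes above 0, as did 48.6% of all tested genes. Among them, Casp1 passed the filter on low counts through its MitoPark mean alone. Without it, 4 of 5 were above 0, with a median of 0.20 beside a median of -0.0047 over all genes. Only Casp8 passed the cutoffs. Casp9, the apoptosome's initiator caspase and the highest caspase of the set per length at 6.18 CPM per kilobase, had 20.1, 22.1 and 30.0 CPM in littermate controls 1 to 3 and 25.2, 29.5 and 28.2 CPM in MitoParks 1 to 3. Littermate control 3 was above every MitoPark, and the log2 fold change was 0.20 (SE 0.16, exact permutation p = 0.4). Without that mouse it was 0.39, past the p cutoff of the edgeR test but under the fold cutoff.

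Casp12, a caspase linked to stress of the endoplasmic reticulum, was near the filter at 1.45, 1.04 and 2.15 CPM in littermate controls 1 to 3 and 1.10, 1.92 and 3.51 CPM in MitoParks 1 to 3. The groups overlapped, and MitoPark 3 alone was high. Its log2 fold change of 0.49 (SE 0.47, exact permutation p = 0.6) became -0.02 without MitoPark 3. Casp1, the inflammasome caspase, had 1.33, 0.474 and 0.879 CPM in littermate controls 1 to 3 and 1.58, 0.909 and 0.680 CPM in MitoParks 1 to 3, also with overlap (log2 fold change 0.24, SE 0.52, exact permutation p = 0.7). Its sign turned to -0.07 without littermate control 2. Casp2 and Casp6 had log2 fold changes of -0.04 and 0.06. Casp4, another inflammatory caspase, had 3 to 6 counts per mouse and was not tested.

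For Casp8 and its restraint Cflar the within-mouse ratio did separate the groups. Cflar, outside the set of 35, ran from 37.2 to 40.4 CPM in littermate controls and from 40.7 to 42.8 CPM in MitoParks, a log2 fold change of 0.11 (95% interval -0.13 to 0.35, exact permutation p = 0.1). Casp8 had 5.83, 5.74 and 4.39 counts per 100 of Cflar in littermate controls 1 to 3 and 7.32, 7.89 and 9.02 in MitoParks 1 to 3. All 3 MitoParks were above all 3 littermate controls. The log2 ratio differed by 0.61 with an exact permutation p of 0.1, the smallest possible, or 0.267 adjusted over the 4 ratios. Since Cflar hardly differed, this ratio carries the same Casp8 counts and is no second observation.

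**Figure D2:**
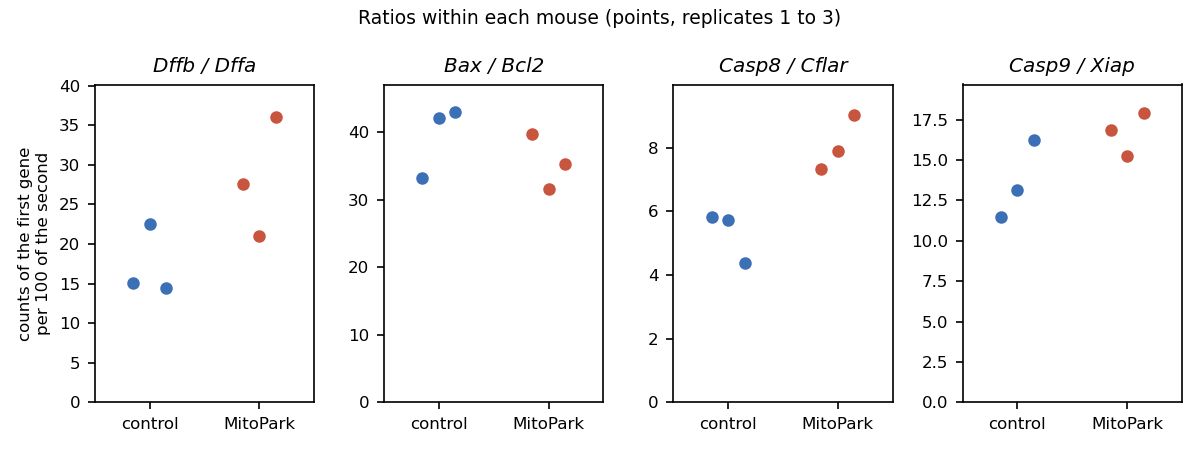
Counts of the first gene per 100 counts of the second within each mouse (linear axes from 0), for 4 pairs of an effector and its restraint, with 1 point per mouse for littermate controls (blue) and MitoParks (red). Only the Casp8 to Cflar points separate, at 4.39 to 5.83 in littermate controls and 7.32 to 9.02 in MitoParks.

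The death receptor genes upstream of Casp8 did not pass the cutoffs. Fas had 2.89 to 3.32 CPM in littermate controls and 2.80 to 3.74 CPM in MitoParks, with a log2 fold change of -0.01 (95% interval -0.59 to 0.56). Fadd, the adaptor that brings caspase-8 to the receptor, was at -0.09 (95% interval -0.61 to 0.43). Tnfrsf1a, the main tumor necrosis factor receptor and the highest of the 3 per length at 4.96 CPM per kilobase, was at 0.14 (95% interval -0.24 to 0.52).

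Apoptosome genes and inhibitors of apoptosis (IAPs) held 6 tested members, none past the cutoffs, with log2 fold changes from -0.22 to 0.08 and a median of -0.04. Cycs, somatic cytochrome c, had the highest level per length of all 33 genes, 77.2 CPM per kilobase in littermate controls. Its CPM ran from 199.8 to 262.8 in littermate controls and from 191.7 to 269.7 in MitoParks. Apaf1, the apoptosome scaffold, had a log2 fold change of 0.08 (95% interval -0.25 to 0.40), and Diablo, which frees caspases from IAPs, -0.01 (95% interval -0.32 to 0.30).

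Xiap, the IAP that binds caspase-9, was at 175.6, 168.2 and 184.7 CPM in littermate controls 1 to 3 and 149.7, 193.6 and 157.8 CPM in MitoParks 1 to 3. MitoPark 2 was the highest of the 6 mice and the other two MitoParks the lowest, with a log2 fold change of -0.08 (95% interval -0.35 to 0.19, exact permutation p = 0.5). Casp9 had 11.5, 13.2 and 16.3 counts per 100 of Xiap in littermate controls 1 to 3 and 16.9, 15.3 and 17.9 in MitoParks 1 to 3. These overlapped through littermate control 3. The log2 ratio differed by 0.30, with an exact permutation p of 0.2 and an adjusted p of 0.267. Birc2 was at -0.01, and Birc3, an IAP of tumor necrosis factor signaling, had 2.23, 2.18 and 1.76 CPM in littermate controls 1 to 3 and 0.852, 2.02 and 2.38 CPM in MitoParks 1 to 3. MitoPark 1 alone was low. The log2 fold change of Birc3 was -0.22 (SE 0.39, exact permutation p = 0.7) and turned to 0.11 without that mouse.

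The Bcl2 family, which sets whether mitochondria release cytochrome c, had no member past the cutoffs among 12 tested. Its pro-survival branch was the most closely bounded group. All 4 of those genes had 95% intervals inside a 1.5-fold change in either direction, against 66.5% of all tested genes. Bcl2l1, which encodes Bcl-xL, was the highest of the 4 per length at 41.5 CPM per kilobase, followed by Bcl2l2 at 39.0 and Mcl1 at 27.2, with log2 fold changes of -0.02, -0.05 and -0.05.

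Bcl2 itself had 50.6, 42.8 and 42.5 CPM in littermate controls 1 to 3 and 46.4, 48.3 and 49.8 CPM in MitoParks 1 to 3. Littermate control 1 was the highest of the 6, and the log2 fold change was 0.09 (95% interval -0.17 to 0.35, exact permutation p = 0.4). Bax, the membrane pore former, had 16.8, 18.0 and 18.3 CPM in littermate controls 1 to 3 and 18.4, 15.3 and 17.6 CPM in MitoParks 1 to 3, with a log2 fold change of -0.05 (95% interval -0.35 to 0.24, exact permutation p = 0.7). Bax and Bcl2 thus overlapped between groups. The Bax count per 100 of Bcl2 was 33.3, 42.2 and 43.1 in littermate controls 1 to 3 and 39.7, 31.7 and 35.3 in MitoParks 1 to 3, a difference in log2 ratio of -0.15 (exact permutation p = 0.3, adjusted p = 0.3).

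Of the other effectors, Bak1 had a log2 fold change of -0.04. Bok, a Bax relative, had 12.8, 9.68 and 10.9 CPM in littermate controls 1 to 3 and 11.6, 9.60 and 7.82 CPM in MitoParks 1 to 3, with overlap and a log2 fold change of -0.20 (SE 0.20, exact permutation p = 0.4). The BH3-only genes, the sensors that start the mitochondrial route, had 5 of 6 tested, with log2 fold changes from -0.11 for Bcl2l11, which encodes Bim, to 0.19 for Bmf. Bbc3, which encodes the p53-induced sensor Puma, was at 0.19 (95% interval -0.61 to 0.98). Bad was the highest of them per length, at 13.3 CPM per kilobase. Bik had at most 2 counts in any mouse and was not tested, so no fold change is given for it.

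**Figure D3:**
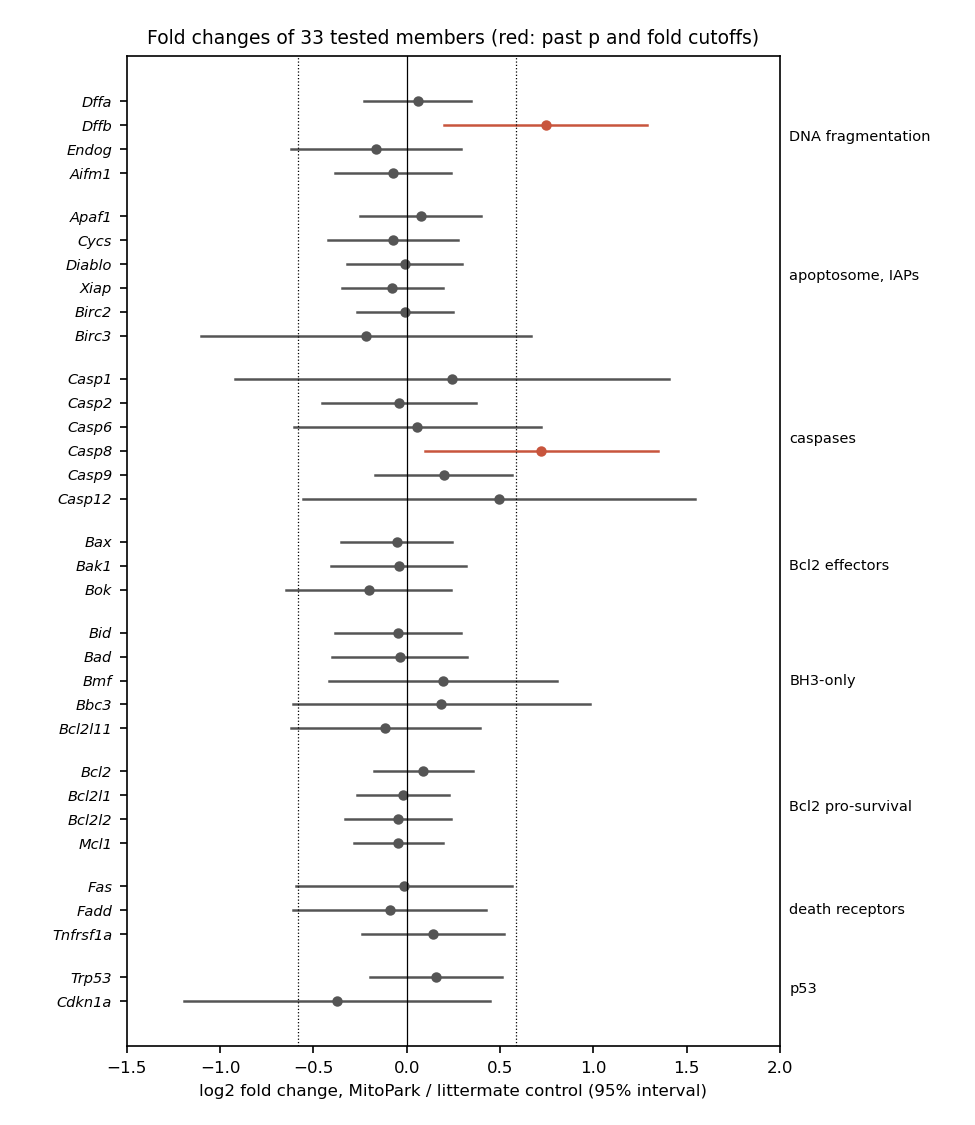
Log2 fold changes of the 33 tested genes (MitoPark over littermate control, n = 3 each), by role, with 95% intervals from the edgeR fit; dotted lines mark a 1.5-fold change in either direction. Only Dffb (0.75) and Casp8 (0.72), in red, passed the p and fold cutoffs, and the intervals of Casp1, Casp12, Birc3, Bbc3 and Cdkn1a are wide.

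Trp53, which encodes p53, had 14.0 to 18.6 CPM in littermate controls and 15.5 to 19.6 CPM in MitoParks, a log2 fold change of 0.15 (95% interval -0.20 to 0.51). Cdkn1a, the p53 target that encodes the cell cycle inhibitor p21, varied most among the littermate controls. It stood at 14.7, 33.8 and 11.2 CPM in littermate controls 1 to 3 and at 14.4, 19.2 and 12.6 CPM in MitoParks 1 to 3. Littermate control 2 was far above the other 5 mice. Its summed CPM over the choroid plexus and ependyma markers was also the highest, at 209.7 against 35.3 to 71.2 in the others, and the part of that in the Cdkn1a value was not tested. The log2 fold change of -0.37 (SE 0.37, exact permutation p = 0.8) turned to 0.25 without littermate control 2. Without littermate control 3 it was -0.66, past both cutoffs of the edgeR test.

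The 95% interval lay within a 1.5-fold change in either direction for 19 of the 33 genes, or 57.6%. The 12 uncalled genes with wider intervals had mean levels of at most 19.9 CPM in littermate controls, and for these a 1.5-fold change was not excluded. Over the 33 genes the median log2 fold change was -0.02, with 13 above 0 and 20 below. Over all genes tested the median was -0.0047. The members' median shift from the control mean, taken in each mouse on log2(CPM + 0.1), was -0.02, -0.06 and 0.04 in littermate controls 1 to 3 and 0.06, -0.05 and 0.06 in MitoParks 1 to 3, so the groups overlapped.

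**Figure D4:**
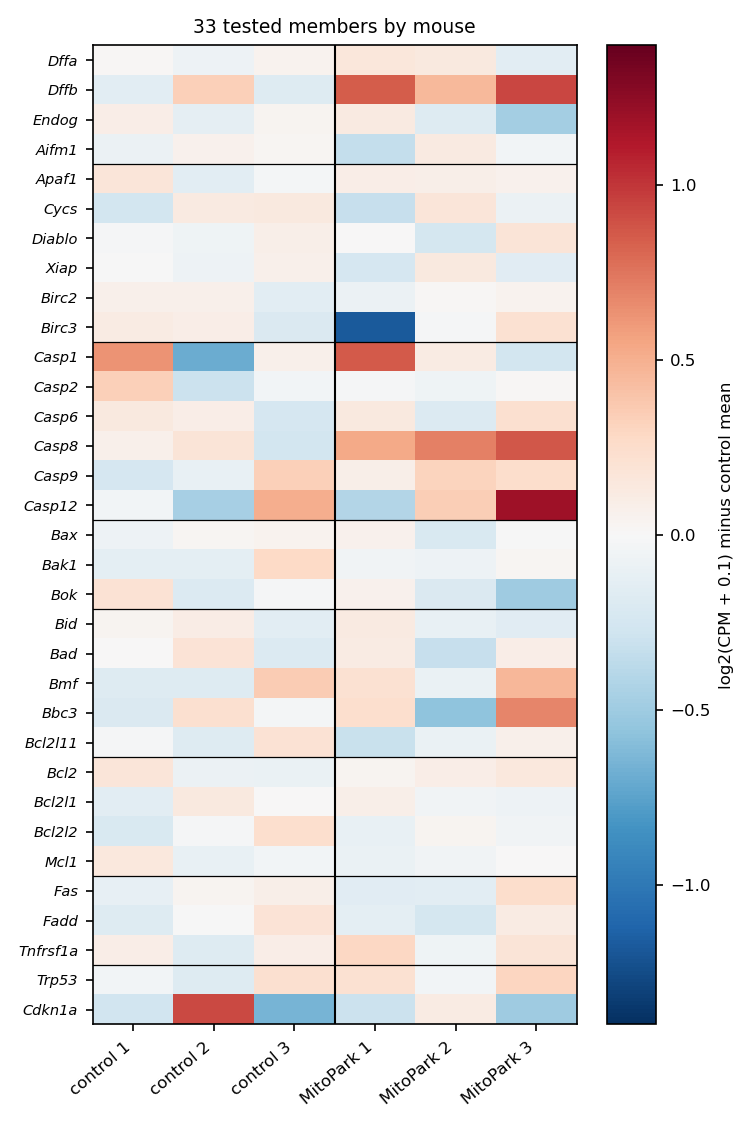
Levels of the 33 tested genes in each of the 6 mice, as log2(CPM + 0.1) minus the mean of the 3 littermate controls (red above, blue below), with horizontal lines between roles. The Dffb and Casp8 rows are red in all 3 MitoParks, whereas Casp12, Birc3 and Cdkn1a owe their strongest colors to single mice. Casp1 varies among mice of both groups.

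A wider list of 81 genes of the same pathways, none in the set of 35 and also chosen with earlier results known, had 61 genes tested. Of these, 2 passed the cutoffs upward (3.28%, beside 0.378% of all genes) and 0 downward, with a median log2 fold change of 0.03. Of these, Bcl2l12 entered the test only through its MitoPark mean, so its place in the count is no support for a rise. In no direction did a member or a wider-list gene reach an adjusted p below 0.05 in the edgeR test. Pycard, the adaptor ASC that joins inflammasome sensors to Casp1, had 1.56, 1.14 and 1.46 CPM in littermate controls 1 to 3 and 3.17, 2.12 and 1.93 CPM in MitoParks 1 to 3, without overlap. Its log2 fold change was 0.79 (SE 0.34, unadjusted edgeR p 0.0456, exact permutation p = 0.1), and it passed in 1 of the 6 fits with 1 mouse left out. Bcl2l12, a Bcl2 relative, had 0.668, 1.23 and 0.586 CPM in littermate controls 1 to 3 and 0.974, 1.92 and 2.38 CPM in MitoParks 1 to 3, with overlap between littermate control 2 and MitoPark 1. Its log2 fold change was 1.07 (SE 0.47, unadjusted edgeR p 0.0473, exact permutation p = 0.2), past the cutoffs in 2 of those 6 fits. With all 6 mice, Pycard passed in 9 of 12 alternatives and Bcl2l12 in 10, and in DESeq2 their unadjusted p-values were 0.114 and 0.0885. Exons of Bcl2l12 overlap Irf3 on the opposite strand and those of Pycard a predicted gene, and whether strand was used in counting is not stated.

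On the wider list, Mdm2, the p53 target that degrades p53, had a log2 fold change of 0.01. Of the 61 genes, 2 were wholly higher in MitoParks and 2 wholly lower, 3.28% each, near the 2.43% and 2.28% of all genes. The former were Pycard and Cflar, and the latter Tnfrsf21, which encodes death receptor 6, and Aen, a p53-induced nuclease. Tnfrsf21 and Aen had log2 fold changes of -0.16 (95% interval -0.40 to 0.08) and -0.18 (95% interval -0.43 to 0.07).

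Casp8 and Pycard are expressed by microglia and other immune cells as well as neurons, so the levels of cell type markers stand beside them. Of 12 microglia markers, 11 had log2 fold changes above 0, beside 48.6% of all tested genes, with a median of 0.24 and none past the cutoffs. Their summed CPM was 330.5 to 435.7 in littermate controls and 417.7 to 462.1 in MitoParks, which overlapped. Astrocyte markers (7 of 8, median 0.13) and oligodendrocyte markers (7 of 8, median 0.03) were also mostly above 0, with none past the cutoffs. Below 0 were 7 of 8 neuron, 5 of 8 endothelium and pericyte, and 4 of 5 choroid plexus and ependyma markers. All 7 tested markers of border macrophages and monocytes were higher, where 48.6% of all tested genes were above 0. Of them 3, Mrc1, F13a1 and Ms4a6c, passed, where 0.378% of all tested genes passed upward. Ms4a7, Pf4 and Ccr2 of the same list had at most 5, 8 and 7 counts in any mouse and were not tested. That list's sum was 24.0, 17.9 and 18.2 CPM in littermate controls 1 to 3 and 21.7, 30.1 and 33.0 CPM in MitoParks 1 to 3, and MitoPark 1 lay below littermate control 1.

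Markers of neutrophils and red cells summed to 113 to 220.5 CPM in littermate controls and 183 to 249 CPM in MitoParks. Most of that sum was the red cell marker Hba-a1, at 81.7 to 169.7 CPM in littermate controls and 142.4 to 192.7 CPM in MitoParks. Csf3r, a receptor gene on this list, passed the cutoffs, though its groups overlapped. It had 35 to 77 counts per mouse, and the cell type they came from was not tested. The neutrophil markers S100a8, S100a9 and Ngp had at most 6, 4 and 1 counts in any mouse and were not tested. T and NK cell markers summed to at most 1.47 CPM in any mouse, and Gzmb was at 0 in all 6. The DAergic neuron markers were lower in MitoParks for 10 of 10 genes, with a median log2 fold change of -0.69 that was -0.08 over the 9 tested without littermate control 3. Among them, Slc6a3 (log2 fold change -2.30) is Dat itself, of which Cre replaces 1 copy in MitoParks. Pitx3 passed the filter through its littermate control mean alone (1.58 CPM, against 0.319 in MitoParks). The places of these genes in the count are thus no support for lower levels. Without littermate control 3, Dffb still rose and Cdkn1a was called lower, while Casp8 had a log2 fold change of 0.60, past the fold cutoff but not the p cutoff. The part of any of these cell types in the Dffb and Casp8 values was not tested.

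**Figure D5:**
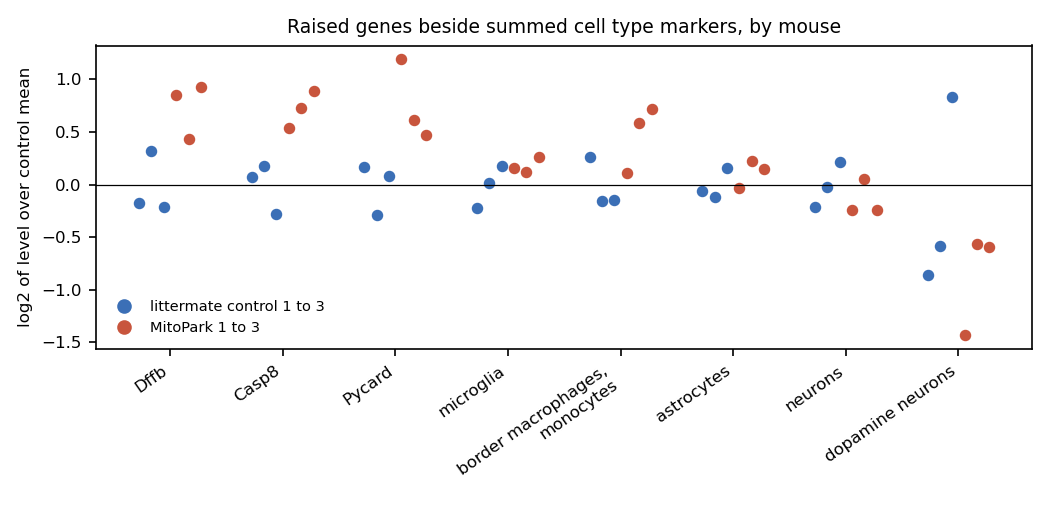
Log2 of the level over the littermate control mean in each mouse (blue, littermate controls 1 to 3; red, MitoParks 1 to 3, left to right) for Dffb, Casp8 and Pycard and for the summed CPM of 5 cell type marker lists. The 3 genes separate the groups, the marker sums overlap, and littermate control 3 lies far above the other 5 mice for DAergic neurons.

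Some members shared reads with other genes. RSEM divides a read among the genes it fits, which leaves fractional counts, and these were present in every mouse for Endog, Diablo and Fadd and in 5 of 6 mice for Cycs and Bad. What this sharing adds to the error of those 5 genes was not measured. Dffb and Casp8 counts were whole in all 6 mice.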

How the data were processed

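Poly-A RNA from the SN of 3 MitoParks and 3 littermate controls had been made into dUTP libraries and sequenced. The authors mapped reads to UCSC transcripts with Bowtie2 2.1.0 and deposited expected counts per gene from RSEM 1.2.15, not normalized. The submitters' processing notes name hg38, a human build, for these mouse samples, so no coordinate was taken from the counts. Groups came from the sample labels. All 6 columns were mapped, and 0 were left over.

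Expected counts were rounded, genes were kept where the mean CPM of either group passed 1, and TMM normalization and a quasi-likelihood test with the 2 groups as the model were run in edgeR 4.0.16 (R 4.3.3). A gene was called when its p, without adjustment, was below 0.05 and it changed more than 1.5-fold. The study's methods give these sizes for edgeR without saying whether the p was adjusted, and another passage of them sets an adjusted p at the same limit. Adjustment was by Benjamini-Hochberg across the 14568 tested genes. Intervals are 95% intervals from the fit. Exact permutation tests were two-sided, on log2(CPM + 0.1) or on log2 ratios of counts with 0.5 added. The procedure was tested on simulated data. Levels per kilobase used the longest GENCODE M21 transcript.

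Alternatives were other tests (DESeq2 1.42.0, limma 3.58.1 and others), normalizations and filters, a replicate block, and each mouse left out. In each mouse, 11.9% to 14.1% of the 24054 genes had a fractional count. Depth sets counting error only, since reads had no molecular identifiers. Mice of a group differed beyond sampling noise in every pair (chi-square divided by its degrees of freedom at least 9.68).

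The members and gene lists were chosen with earlier results of these data known. Text gives full values for members with a p below 0.05 or groups that did not overlap, the 8 with the largest fold changes and both genes of each ratio, and gives the others by role. Figures were drawn with matplotlib 3.10.9, and other steps used pandas 2.3.3, scipy 1.17.1 and numpy 2.4.6 under Python 3.11.15. A few genes are not reported here.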

Additional observations from a re-analysis of the deposited data

How the results depend on the processing

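In 12 alternatives on all 6 mice, 391 of 395 fold changes of single genes kept their direction and their side of the cutoffs. Casp8 was not called by DESeq2 (unadjusted p 0.082), which left 1 member called up and 1 with an unadjusted p below 0.05. Total count normalization turned Birc2, Diablo and Fas to 0.0039, 0.0050 and 0.0024 on the log2 scale. Without the filter on low counts, 176 genes of the whole table were called in place of 84. The mice share replicate numbers, but same-numbered mice did not all deviate together (r = 0.307, -0.074 and 0.244), so they were not taken as pairs. With the replicate block, 126 genes were called, and Dffb and Casp8 stayed called at log2 fold changes of 0.75 and 0.72.

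With 1 mouse left out, 1 to 2 members were called up, 0 to 1 down and 1 to 3 had a p below 0.05. From 2 to 5 members were wholly higher and 0 to 1 wholly lower, where 4.34% to 10.9% of all genes were wholly higher and 4.69% to 10.5% wholly lower, and 62 to 219 genes of the whole table were called. The members' median ran from -0.038 to 0.023. Dffb was called in 6 of the 6 fits and Casp8 in 2. The sign of 21 uncalled genes changed in at least 1 of these fits, with log2 fold changes of -0.18 to 0.051 for Aifm1, -0.20 to 0.049 for Cycs, -0.12 to 0.10 for Diablo, -0.19 to 0.0056 for Xiap, -0.077 to 0.038 for Birc2, -0.48 to 0.11 for Birc3, -0.069 to 0.63 for Casp1, -0.18 to 0.15 for Casp2, -0.058 to 0.19 for Casp6, -0.019 to 0.81 for Casp12, -0.10 to 0.029 for Bax, -0.12 to 0.11 for Bak1, -0.13 to 0.0084 for Bid, -0.13 to 0.10 for Bad, -0.15 to 0.48 for Bbc3, -0.084 to 0.053 for Bcl2l1, -0.14 to 0.077 for Bcl2l2, -0.097 to 0.037 for Mcl1, -0.16 to 0.066 for Fas, -0.20 to 0.013 for Fadd and -0.66 to 0.25 for Cdkn1a. The cause of these changes was not tested. The 4 ratios kept their sign in every fit. Low counts, as for Casp8, Casp12, Casp1 and Birc3, limit what could be seen.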

Other observations

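Of the 20 genes on the wider list that were too low to test, several encode mediators of other forms of cell death or of inflammation, among them Ripk3 and Mlkl of necroptosis, Fasl and Tnf, the ligands of Fas and Tnfrsf1a, and Il1b and Nlrp3 of the inflammasome. Each had a mean of at most 1 CPM in both groups and was left out by the filter. Fitted in edgeR without the filter, 19 of the 20 gave a value, and 0 passed the cutoffs or had an unadjusted p below 0.05. These low counts do not show that the genes were unchanged.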
